A study of Homo sapiens and Mus musculus and synthetic construct with 31 samples.

Results

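CpG-rich upstream sequences were the members of a massively parallel reporter assay (MPRA) library that lay upstream of a transcription start site (TSS) without touching it and held at least 12 CpG dinucleotides in their 144 bp. Each was the upstream tile of its TSS, from 228 to 84 bp upstream. The rule used the designed sequence alone and no measured value, though it was chosen with earlier results of these data known. 1157 of 3473 human upstream sequences (33.3%) and 871 of 3286 mouse upstream sequences (26.5%) met it, 2028 of the 15156 sequences of the library. Human and mouse sequences were kept apart throughout.

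The assay placed each designed sequence in front of a GFP reporter carrying a barcode and related its barcodes' reads in cellular RNA to their reads in the plasmid DNA, so that the ratio is a measure of promoter strength outside the chromosome. The plasmids were transfected into HUES64, a line of human embryonic stem cells (hESCs) kept feeder-free in mTeSR1, and into a line of mouse embryonic stem cells (mESCs) kept feeder-free in 2i. Each cell type was sampled at 3 passages, which are the replicates, with 3 transfections of each hESC passage summed and 1 transfection of each mESC passage, and the plasmid DNA was 1 library. The same plasmid library was used in both, but the cell line, medium and lipofection reagent change with the species of the cell, so these cannot be told apart in any hESC to mESC comparison. Barcodes of the library took up 98438176 DNA reads, 61362734 to 106166067 reads in each hESC library and 84919712 to 117103221 in each mESC library. The passages share the 1 DNA library and the same barcodes, so p-values measure the spread between passages only, and intervals on shares cover counting error only. Every deposited DNA count was even (0 odd among 239653 barcodes), whereas 51.6% to 53.9% of the RNA counts above 0 were odd, so the DNA counts may not be single reads; the cause was not tested.

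In mammalian genomes most cytosines of CpG dinucleotides are methylated and have been lost by mutation, and stretches that keep a high CpG number, the CpG islands, lie at most promoters of widely expressed genes. CpG-island promoters often start transcription in both directions and from many positions, seldom hold a TATA box, and carry sites for factors such as SP and KLF proteins (GC box), NF-Y (CCAAT box), ETS factors, NRF1, CREB and ATF proteins (CRE) and YY1. Plasmid DNA grown in ordinary laboratory bacteria carries no CpG methylation, so the assay reads the sequences in the unmethylated state.

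Composition bore out the name of the set. The CpG-rich upstream sequences held a median of 16 CpG dinucleotides in both species, with at most 35 in human and 33 in mouse, against a median of 4 in the other upstream sequences. Their median GC content was 72.9% in human and 71.5% in mouse, against 53.5% in the other upstream sequences of each species, and the ratio of observed to expected CpG had a median of 0.929 in human and 0.956 in mouse against 0.416 and 0.392. All 2028 matched the reference genome (hg19 or mm9) exactly at their coordinates.

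By annotation on either strand, each sequence was placed once, in the order coding exon, UTR, other exon, intron and between genes. Of the human CpG-rich upstream sequences, 36.7% overlapped a UTR but no coding exon, 14.2% a coding exon, 17.7% another exon and 15.4% an intron. The remaining 16.1% lay between genes. In mouse these shares were 36.2%, 16.5%, 6.43%, 13.6% and 27.3%. Human and mouse were annotated from different GENCODE releases, so species and annotation cannot be told apart in these shares or in those of annotated starts. An annotated start of a transcript on the opposite strand lay within 34.2% of the human and 27.6% of the mouse CpG-rich sequences, against 10.5% and 5.84% of the other upstream sequences. An annotated start on the same strand lay within 21.0% and 15.2%, against 11.5% and 5.76%. Many upstream tiles were thus themselves at an annotated start of another transcript. 337 human and 235 mouse CpG-rich sequences overlapped another one, so that they cover 964 and 744 separate regions.

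10 sequences that the results below turn on are printed here 5′ to 3′ on the strand of their TSS, in lower case, with the listed consensus sites (spelled out beside their results) in capitals. The first set holds orthologs of unequal activity. Mouse Gtf2f1, encoding the large subunit of the general transcription factor TFIIF, is shown beside human GTF2F1, which held only 9 CpG. Next come mouse Jag1 (a Notch ligand), human LINC02427 (a long non-coding RNA) and 1 of 2 human UXT-AS1 sequences (non-coding RNA opposite UXT). Their positions were chr17:57150809-57150952 (mm9, minus strand, between genes), chr19:6393259-6393402 (hg19, minus, intron of GTF2F1), chr2:136942447-136942590 (mm9, minus, between genes), chr4:185458710-185458853 (hg19, minus, exon of LINC02427) and chrX:47517995-47518138 (hg19, plus, intron of UXT).
Gtf2f1 (mouse): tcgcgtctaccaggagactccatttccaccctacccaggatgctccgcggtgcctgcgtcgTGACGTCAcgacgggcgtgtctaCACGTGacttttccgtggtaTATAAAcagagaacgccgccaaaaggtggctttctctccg
GTF2F1 (human): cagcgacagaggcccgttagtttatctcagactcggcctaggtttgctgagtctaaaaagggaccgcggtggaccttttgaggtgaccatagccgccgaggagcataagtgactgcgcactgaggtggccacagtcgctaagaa
Jag1 (mouse): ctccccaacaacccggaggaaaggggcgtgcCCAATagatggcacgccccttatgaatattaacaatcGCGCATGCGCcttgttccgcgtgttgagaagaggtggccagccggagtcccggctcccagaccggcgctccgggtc
LINC02427 (human): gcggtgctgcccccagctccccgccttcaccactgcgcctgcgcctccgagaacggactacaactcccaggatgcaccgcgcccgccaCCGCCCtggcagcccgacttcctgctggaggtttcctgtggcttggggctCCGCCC
UXT-AS1 (human): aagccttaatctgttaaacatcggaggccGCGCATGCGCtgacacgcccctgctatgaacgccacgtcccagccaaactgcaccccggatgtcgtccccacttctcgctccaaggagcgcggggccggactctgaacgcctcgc

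The mouse Gtf2f1 sequence held a CRE at positions 62 to 69, an E-box at 85 to 90 and a TATA box at 105 to 110, counted from 1 at the 5′ end, and the human one held none of the listed sites. In mouse Jag1 a CCAAT box (32 to 36) preceded an NRF1 site read on both strands (69 to 78), and UXT-AS1 held such an NRF1 site at 30 to 39.

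The second set holds sequences that differed between the cell types or from the sequence at their own TSS. RPL22L1 (ribosomal protein L22 like) was inactive upstream of a strong TSS sequence. PIK3R2 (a regulatory subunit of PI3 kinase), ADAMTS16 (a secreted metalloprotease) and mouse Tsc22d1 (a transcriptional regulator induced by TGF-beta) were higher in hESCs, and DDX39A (a DEAD-box RNA helicase) was higher in mESCs. Their positions were chr3:170588068-170588211 (hg19, minus, between genes), chr19:18263745-18263888 (hg19, plus, between genes), chr5:5140186-5140329 (hg19, plus, exon of ADAMTS16-DT), chr14:76814347-76814490 (mm9, plus, between genes) and chr19:14530276-14530419 (hg19, minus, between genes).
RPL22L1 (human): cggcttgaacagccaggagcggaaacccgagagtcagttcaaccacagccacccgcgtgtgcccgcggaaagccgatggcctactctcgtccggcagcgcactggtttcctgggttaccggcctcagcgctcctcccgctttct
PIK3R2 (human): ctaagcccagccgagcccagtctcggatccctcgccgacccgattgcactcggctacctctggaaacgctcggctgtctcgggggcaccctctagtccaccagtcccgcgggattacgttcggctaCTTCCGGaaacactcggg
ADAMTS16 (human): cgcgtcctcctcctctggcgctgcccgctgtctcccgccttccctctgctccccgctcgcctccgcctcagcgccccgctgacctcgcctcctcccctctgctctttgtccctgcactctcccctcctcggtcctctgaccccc
Tsc22d1 (mouse): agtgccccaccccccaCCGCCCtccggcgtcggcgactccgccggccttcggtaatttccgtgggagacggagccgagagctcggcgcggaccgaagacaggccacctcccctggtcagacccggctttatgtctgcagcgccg
DDX39A (human): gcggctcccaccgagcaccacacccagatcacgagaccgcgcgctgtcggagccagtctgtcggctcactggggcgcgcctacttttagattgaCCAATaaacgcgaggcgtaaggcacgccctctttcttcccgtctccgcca

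Not all CpG-rich upstream sequences could be measured. A sequence counted as measured where at least 50% of its 13 barcodes had 10 or more DNA counts, and 727 human (62.8%, 95% exact binomial interval 60.0% to 65.6%) and 585 mouse CpG-rich sequences (67.2%, 63.9% to 70.3%) passed, against 2294 of 2316 and 2395 of 2415 of the other upstream sequences. The share fell with CpG number, from 87.4% at 12 to 15 CpG through 59.2% at 16 to 19 to 26.9% at 20 or more in human, and from 93.2% through 65.2% to 28.5% in mouse. The median DNA count per barcode fell in the same order, from 180 through 30 to 2 in human and from 300 through 42 to 4 in mouse, against 386 and 380 in the other upstream sequences. The CpG-rich sequences not measured held a median of 20 CpG in each species, those measured a median of 15. The values below thus describe the less CpG-rich part of the set. CpG-rich sequences at the TSS itself were lost to a similar extent, with 63.9% measured in human and 69.2% in mouse.

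The CpG-rich upstream sequences drove the reporter more strongly than the other upstream sequences in both species and both cell types. Activity divides the RNA counts of all barcodes of a sequence by their DNA counts and is scaled so that the median random sequence is 1 in each passage. The median activity of the 727 human sequences was 2.04, 2.15 and 2.19 in the 3 hESC passages and 1.81, 1.71 and 1.79 in the 3 mESC passages. The median of the 2294 other human upstream sequences was 1.18, 1.15 and 1.17 in hESCs and 1.17, 1.12 and 1.12 in mESCs. The 2 sets of medians did not overlap.

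The 585 mouse sequences gave the same picture. Their median was 2.08, 2.17 and 2.18 in the hESC passages and 1.69, 1.62 and 1.71 in the mESC passages, against 1.17, 1.13 and 1.14 and 1.16, 1.12 and 1.12 for the 2395 other mouse upstream sequences. On the log2 scale the CpG-rich medians were higher by 0.75 ± 0.13 in human (SD, n = 6 passages) and by 0.73 ± 0.19 in mouse, which is 1.69-fold and 1.66-fold. The difference was positive in 6 of 6 passages in each species (exact sign-flip permutation test over passages, two-sided, p = 0.03125, the smallest that 6 passages allow). Without a minimum share of barcodes, which kept 1156 human and 868 mouse CpG-rich sequences, it was 0.55 and 0.56. With minimums of 20 and 30 DNA counts it was 0.83 and 0.88 in human and 0.78 and 0.79 in mouse. Low DNA counts move with CpG number, and their part in the difference was not tested beyond these settings.

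The difference was also present between sequences of like GC content from 60 to 70%. Among sequences of 60 to 65% GC, the median of 114 human CpG-rich sequences exceeded that of 370 other upstream sequences by 0.98 ± 0.17, and that of 100 mouse ones exceeded 344 others by 0.68 ± 0.16. At 65 to 70% GC the differences were 0.43 ± 0.04 in human (206 against 200 sequences) and 0.26 ± 0.09 in mouse (198 against 157). All 4 were positive in 6 of 6 passages (exact sign-flip test, p = 0.03125 each). Among the CpG-rich sequences of human, those at 60 to 65% GC had a median activity of 2.98, 3.43 and 3.34 in hESCs, and those above 75% GC 1.42, 1.68 and 1.85. Above 75% GC the order was the other way in human, with hESC medians of 1.69, 3.90 and 3.66 for the 7 other upstream sequences and mESC medians of 1.97, 2.10 and 2.00, against 1.65, 1.38 and 1.47 for the 110 CpG-rich ones. This difference was not tested.

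**Figure D1:**
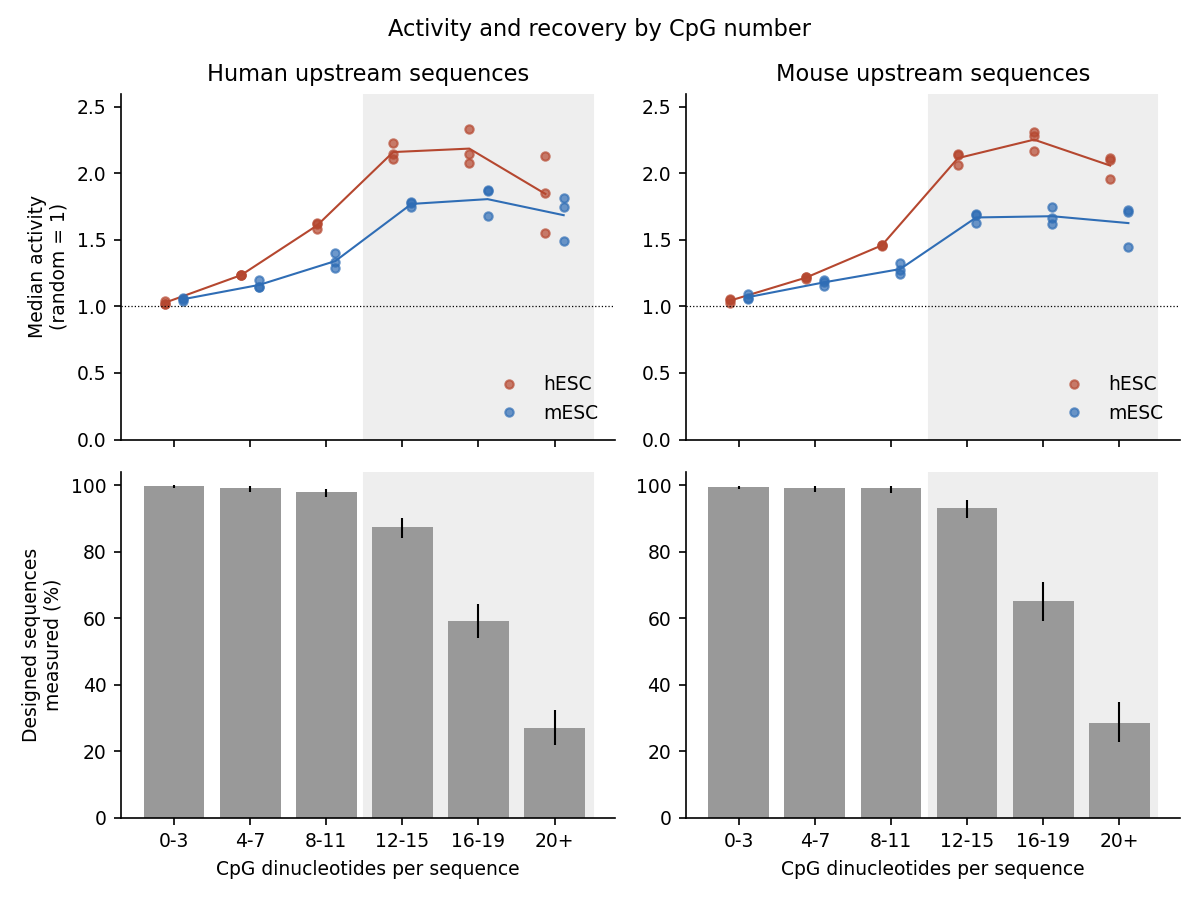
The top panels plot the median activity of human (left) and mouse (right) upstream sequences by CpG number, with 1 point per passage and lines through the mean of the 3 passages of each cell type, and the bottom panels plot the share of designed sequences measured, with 95% exact binomial intervals. CpG-rich bins are shaded: activity rises up to 12 to 15 CpG and levels off, while the share measured drops from 87.4% to 26.9% in human and from 93.2% to 28.5% in mouse.

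Activity rose with CpG number up to the limit of 12 and was level above it. In hESCs the mean over passages of the median activity of human sequences was 1.03 at 0 to 3 CpG, 1.24 at 4 to 7, 1.61 at 8 to 11, 2.16 at 12 to 15, 2.19 at 16 to 19 and 1.85 at 20 or more. For mouse sequences in hESCs it was 1.04, 1.22, 1.46, 2.11, 2.25 and 2.06. Between 12 to 15 and 16 to 19 CpG the difference was 0.02 ± 0.08 on the log2 scale in human (exact sign-flip test over 6 passages, p = 0.5312) and 0.05 ± 0.06 in mouse (p = 0.125), and between 12 to 15 and 20 or more it was -0.16 ± 0.19 (p = 0.125) and -0.04 ± 0.09 (p = 0.4375). None of these exceeded the spread between passages, and the sequences with 20 or more CpG had the lowest DNA counts. Across the CpG-rich sequences Spearman's rho between CpG number and hESC activity was -0.03 in human (n = 727) and 0.01 in mouse (n = 585), whereas across all upstream sequences it was 0.51 (n = 3021) and 0.48 (n = 2980). These sequences share libraries and many overlap, so the coefficients are descriptions.

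The limit at 12 CpG was not a step. Sequences with exactly 11 CpG had median hESC activities of 1.78, 2.02 and 1.97 in human and 1.70, 1.76 and 1.81 in mouse. Those with exactly 12 had 2.02, 2.11 and 2.02 in human and 1.71, 1.86 and 1.88 in mouse.

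The sequences varied widely among themselves. The mean hESC activity of a human CpG-rich sequence ran from 0.54 to 33.5, with 1.35 at the lower and 4.36 at the upper quartile, against 0.946 and 1.66 for the other upstream sequences. Between the odd- and even-numbered barcodes of a sequence, activity had a Spearman's rho of 0.78 in hESCs and 0.71 in mESCs across the human CpG-rich sequences and 0.83 and 0.77 across the mouse ones. The median absolute difference between these barcode sets was 0.29 and 0.36 on the log2 scale in human and 0.27 and 0.33 in mouse. Each set holds only part of the barcodes, so this is not the precision of an activity from all of them. The hESC and mESC activities of the same sequences had a rho of 0.89 in each species, a description over sequences that share their barcodes and DNA counts.

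372 of the 727 human CpG-rich sequences (51.2%, 95% exact binomial interval 47.5% to 54.9%) were active in hESCs, where active means a q value under 0.05 against the spread of the random sequences. Of all TSS sequences measured, 33.2% were active in hESCs, and of the other human upstream sequences 17.7%. In mESCs 226 of the 585 mouse CpG-rich sequences were active (38.6%, 34.7% to 42.7%), against 24.8% of all TSS sequences and 287 of the 2395 other mouse upstream sequences. The lowest activity of an active sequence was 2.07 in hESCs and 2.14 in mESCs. The random sequences themselves had a 95th percentile of 2.045 and a 96th of 2.16 in hESCs. In mESCs their 96th percentile was 1.982 and their 97th 2.213. Some random sequences thus lay above these limits too, and the q value may understate the share of false calls, which was not tested. The share with activity was level over the CpG-rich range in human, at 52.7%, 49.8% and 46.9% for 12 to 15, 16 to 19 and 20 or more CpG in hESCs, and also in mouse, at 38.1%, 39.7% and 38.8% in mESCs.

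In the cells of the other species, 286 human sequences (39.3%) were active in mESCs and 304 mouse sequences (52.0%) in hESCs. 279 human and 217 mouse sequences were active in both cell types, 93 and 87 in hESCs alone, 7 and 9 in mESCs alone, and 348 and 272 in neither. With each sequence ranked among the random ones instead, 167 human sequences were active in hESCs.

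**Figure D2:**
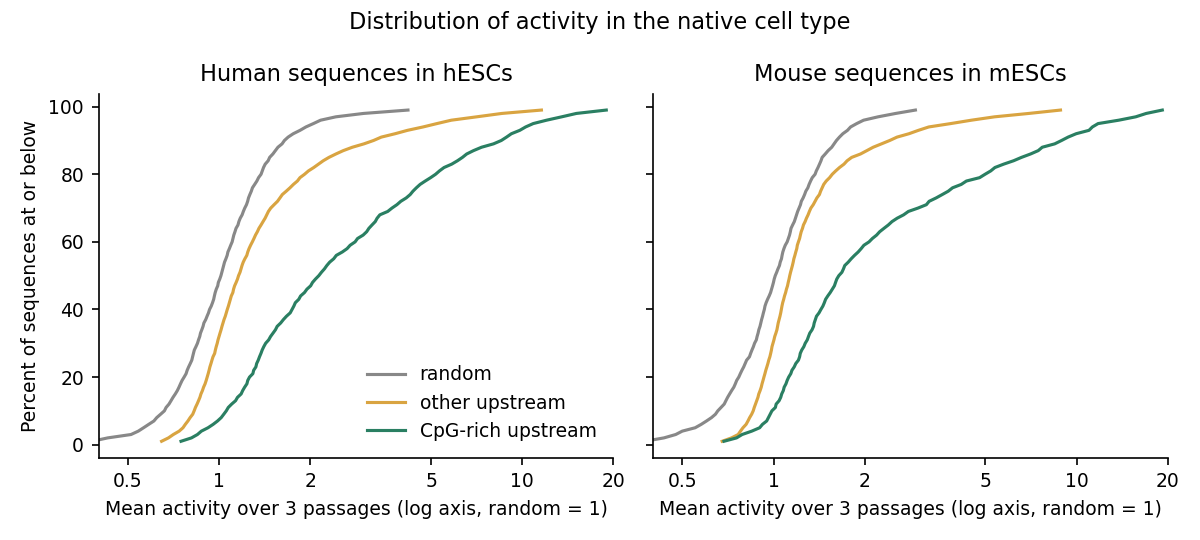
Each curve gives the percent of sequences (vertical axis) at or below an activity (horizontal log axis, random sequences at 1), for human sequences in hESCs (left) and mouse sequences in mESCs (right). The curve of CpG-rich upstream sequences lies to the right of that of the other upstream sequences, with medians near 2.13 against 1.17 in human.

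CpG-rich upstream sequences were weaker than CpG-rich sequences at the TSS. The medians of the 910 measured human CpG-rich TSS sequences were 3.14, 3.35 and 3.29 in hESCs, and the upstream ones were lower by 0.55 ± 0.08 on the log2 scale over the 6 passages. In mouse the difference was 0.93 ± 0.07, against 783 TSS sequences. The upstream medians were lower in 6 of 6 passages in both species (exact sign-flip test, p = 0.03125).

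CpG-rich upstream sequences that held an annotated start of their own were more active. Of the measured human sequences, 240 held a start on the opposite strand only, with medians of 2.36, 2.67 and 2.77 in hESCs, and 106 a start on the same strand only, with 2.45, 2.59 and 2.58. The 43 with starts on both strands had 5.38, 4.95 and 4.60, and the 338 with none 1.64, 1.73 and 1.75. Over all 6 passages the 3 groups exceeded the last by 0.53 ± 0.12, 0.50 ± 0.16 and 1.68 ± 0.23 on the log2 scale, each positive in 6 of 6 passages (exact sign-flip test, p = 0.03125). 39.1% of the sequences with no annotated start were still active in hESCs, against 61.3%, 56.6% and 76.7% of the others.

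In mouse each group likewise exceeded the sequences with no annotated start. The 168 sequences with an opposite-strand start only exceeded the 327 with none by 0.50 ± 0.06, the 78 with a same-strand start only by 0.75 ± 0.10 and the 12 with both by 1.85 ± 0.22 (6 of 6 passages and exact p = 0.03125 each). In mESCs the medians of these 12 were 5.54, 4.14 and 4.68, and those of the sequences with none 1.46, 1.45 and 1.49. The groups had nearly equal CpG numbers, with medians between 14 and 16.

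By place, the human CpG-rich sequences overlapping a UTR but no coding exon had medians of 2.29, 2.48 and 2.42 in hESCs. Those in introns had 1.54, 1.82 and 1.76. In mouse the UTR group had 2.03, 1.80 and 1.87 in mESCs and the intron group 1.56, 1.47 and 1.53. The passages of UTR and intron sequences did not overlap in either species, and the difference was not tested.

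The 5 strongest human CpG-rich upstream sequences had mean hESC activities from 21.3 to 33.5. That of MRPL3, a protein of the large mitochondrial ribosomal subunit (chr3:131221765-131221908, hg19, minus, coding exon), gave 26.3, 26.3 and 30.3 in hESCs. MIR3677HG, a non-coding RNA opposite the splicing factor gene RNPS1 (chr16:2318102-2318245, plus, UTR), gave 26.7, 25.1 and 28.4. NFYA, encoding a subunit of the factor NF-Y that binds CCAAT boxes (chr6:41040627-41040770, plus, UTR), gave 24.2, 24.2 and 29.1. These 3 and a further 2, RNF139-DT (mean 33.5 ± 1.63) and the second UXT-AS1 sequence (21.3 ± 1.98, n = 3 passages), were the 5 highest. The NFYA sequence itself held a CCAAT box, that of MRPL3 an ETS site, and that of MIR3677HG a GC box, a CCAAT box and a CRE. The second UXT-AS1 sequence held a GC box and an ETS site, and RNF139-DT, the highest, held none of the listed sites. Of the 727 measured human CpG-rich sequences, 222 held none.

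The lowest 2 human sequences lay below the random median of 1. DPP10-AS1, antisense to DPP10, which encodes a protein that binds potassium channels (chr2:115919707-115919850, minus, coding exon of DPP10), gave 0.545, 0.535 and 0.538 in hESCs. FRAT2, a GSK3-binding protein of WNT signalling (chr10:99094325-99094468, minus, coding exon), gave 0.34, 0.631 and 0.842 and rested on only 358 DNA counts. Both of these weak sequences held a GC box.

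In mouse, the highest was Sec22b, a SNARE protein of vesicle transport (chr3:97705030-97705173, mm9, plus, UTR), at 30.1, 24.5 and 41.4 in mESCs. Gps1, a subunit of the COP9 signalosome (chr11:120645533-120645676, plus, coding exon), gave 23.8, 18.1 and 30.3. Yipf3, a Golgi membrane protein (chr17:46384896-46385039, plus, coding exon), gave 22.3, 18.4 and 29.1. The other 2 of the highest 5 were Frg1 (19.7 ± 3.54) and Eif2b4, a subunit of the translation factor eIF2B (19.7 ± 5.21, n = 3). All 5 held at least 1 of the listed sites, an ETS site in Gps1, Yipf3 and Eif2b4 and a CCAAT box in Sec22b, Frg1 and Eif2b4. Most CpG-rich sequences did so, as only 184 of the 585 measured mouse ones held none.

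The lowest mouse sequence, that of Plekha3, gave 1.08, 0.286 and 0.00896 in mESCs on 274 DNA counts. The next, in no gene (chr3:65463356-65463499, minus), gave 0.539, 0.553 and 0.351 on 434. Both held a GC box and 18 or more CpG, and the median DNA count of a measured mouse sequence was 6024.

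For most of the consensus sites tested, CpG-rich sequences with the site had a higher median activity than those without. Exact matches to 13 consensus sequences were searched on both strands, and 10 differences with at least 20 sequences on each side were tested, human and mouse counted apart. A match describes letters, not a bound factor, and the tests over passages do not cover the spread between sequences. The GC box, GGGCGG, was in 62.4% of the human and 58.2% of the mouse CpG-rich sequences, against 16.1% and 16.7% of the other upstream ones and 31.5% and 27.7% of all. The 390 measured human sequences with a GC box exceeded the 337 without by 0.47 ± 0.03 on the log2 scale, and the 296 mouse ones exceeded 289 by 0.43 ± 0.09. Both were positive in 6 of 6 passages (exact sign-flip test, p = 0.03125, adjusted over the 10 tests 0.03472). Single sequences overlapped widely, with hESC quartiles of 1.42 and 4.77 in human sequences with a GC box and 1.24 and 3.40 without. The GC box differences moved with the settings, to 0.20 in human and 0.18 in mouse without a minimum share of barcodes and to 0.71 and 0.61 with a minimum of 30 DNA counts.

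Rarer sites went with larger differences. The ETS site, CCGGAAG, was in 6.14% of human and 9.53% of mouse CpG-rich sequences (4.12% and 4.53% of all upstream sequences). The 58 measured human sequences with it had hESC medians of 5.32, 5.89 and 6.30, against 1.89, 2.04 and 2.05 without. The 73 mouse sequences with it had mESC medians of 5.44, 4.81 and 6.15, against 1.59, 1.497 and 1.58. The passages with and without the site did not overlap, and the difference was 1.481 ± 0.10 in human and 1.75 ± 0.13 in mouse on the log2 scale (adjusted exact p = 0.03472 each).

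The CCAAT box, CCAAT, was the one common site not enriched by count, in 16.3% of human and 15.6% of mouse CpG-rich sequences against 19.7% and 18.9% of the others. The 142 human sequences with it had hESC medians of 3.66, 3.95 and 3.82 against 1.79, 1.92 and 1.93. In mouse 101 sequences had mESC medians of 3.43, 3.10 and 3.79 against 1.59, 1.51 and 1.58. The differences were 1.00 ± 0.06 and 1.17 ± 0.10 (adjusted exact p = 0.03472).

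NRF1 (GCGCATGC) was tested in human, where 32 sequences with the site exceeded the others by 1.40 ± 0.19, and the YY1 site (AAGATGGC) in mouse, where 20 did so by 0.75 ± 0.32 (adjusted exact p = 0.03472 each). In mouse 13 sequences with an NRF1 site were higher by 1.90 ± 0.29 and in human 17 with a YY1 site by 0.98 ± 0.27, in 6 of 6 passages each, in groups too small for the adjusted test. The CRE, TGACGTCA, had the widest gap of the sites held by at least 10 measured sequences. 16 human sequences with it had hESC medians of 7.73, 9.56 and 9.78 and 11 mouse sequences had mESC medians of 7.31, 7.14 and 9.21, 1.93 ± 0.26 and 2.13 ± 0.30 above those without. With sequences of 15 or more CpG the human CRE difference was 0.93, below that of the ETS site at 1.56. Its share was 1.64% of human and 1.72% of mouse CpG-rich sequences, against 0.691% and 0.609% of all upstream sequences.

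Some sites did not follow this pattern or not in both species. The E-box, CACGTG, made no difference beyond the spread in human (36 sequences, -0.08 ± 0.12, adjusted exact p = 0.1875), whereas 19 mouse sequences with it were higher by 1.05 ± 0.24. The human E-box difference was -0.14 with sequences of 10 or more CpG and -0.24 with 15 or more (exact sign-flip test, p = 0.03125 each, not adjusted). With a minimum of 20 DNA counts it was 0.01. This mouse E-box difference was 0.63 without a minimum share of barcodes, 0.55 with sequences of 10 or more CpG and 0.31 with even-numbered barcodes, where it did not pass (exact sign-flip permutation test, p = 0.0625). The E2F site, GGCGGGAA, was higher in human by 0.92 ± 0.15 (28 sequences, adjusted exact p = 0.03472), while in mouse the difference was -0.28 ± 0.12 (11 sequences). In 14 human and 6 mouse E2F sequences the match overlapped a GC box. TATAAA was rare, with 13 human and 12 mouse sequences at 0.28 ± 0.22 and 0.55 ± 0.20. The human E2F difference was 0.34 without a minimum share of barcodes and 0.58 with the median ratio over barcodes. With even-numbered barcodes the TATAAA differences were -0.04 and 0.003, and with sequences of 10 or more CpG the mouse E2F difference was 0.36. The sites CTCGCGAG (ZBTB33 type), TGANTCA (AP-1), ATGCAAAT (octamer) and ACTACAAT (ZNF143) were each in at most 7 measured sequences of a species.

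**Figure D3:**
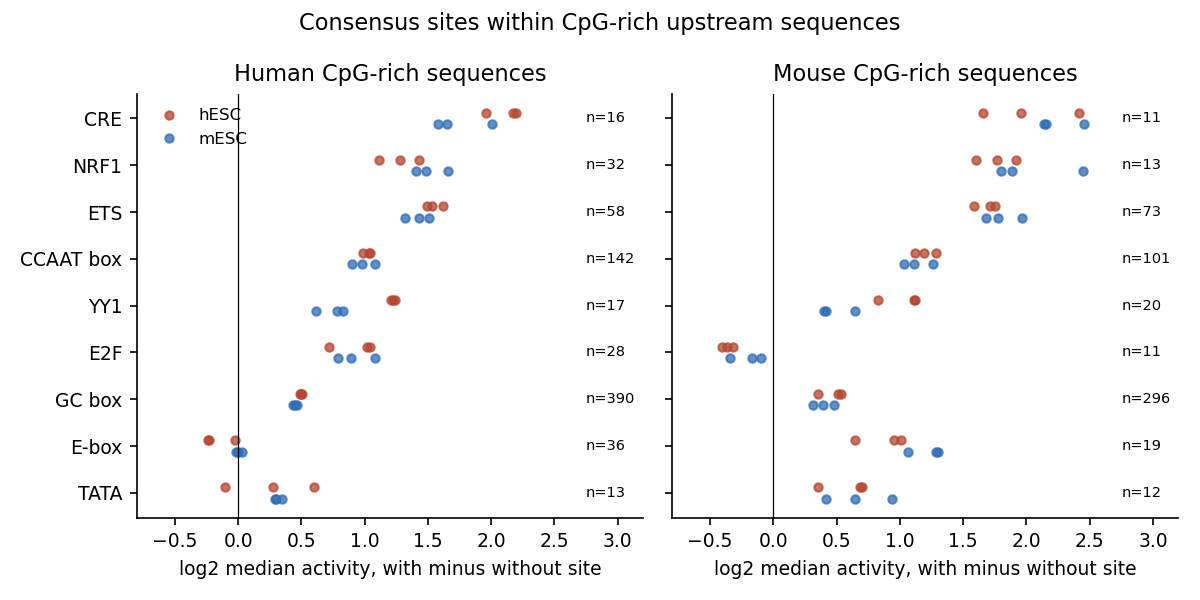
Each point is 1 passage and gives the log2 difference in median activity between CpG-rich upstream sequences with and without a consensus site (horizontal axis), for human (left) and mouse (right) sequences, with the number of sequences holding the site at the right. Points for CRE, NRF1, ETS and CCAAT sites lie at 0.90 or above in every passage of both species, those for the GC box between 0.31 and 0.53, and E2F points lie on opposite sides of 0 in the 2 species.

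Activity rose with the number of kinds of site a sequence held. Human sequences with none of the listed sites (222) had hESC medians of 1.55, 1.60 and 1.52, those with 1 kind (308) 1.95, 2.12 and 2.15, those with 2 kinds (158) 3.78, 4.26 and 4.08, and those with 3 or more (39) 4.12, 4.42 and 4.48. The share active in hESCs was 30.2%, 50%, 74.7% and 84.6%. In mouse the mESC medians were 1.31, 1.27 and 1.28 with none (184), 1.68, 1.64 and 1.82 with 1 kind (258), 3.46, 3.15 and 3.67 with 2 (119) and 7.41, 6.96 and 9.30 with 3 or more (24). The share active in mESCs was 13.6%, 37.2%, 69.8% and 91.7%. The number of GC boxes gave a smaller range. In human, hESC medians went from 1.74, 1.85 and 1.85 with none to 2.90, 3.04 and 3.10 with 2, and were 2.73, 2.99 and 2.54 with 3 and 2.85, 3.26 and 3.595 with 4 or more.

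The CpG-rich sequences were lower in mESCs than in hESCs relative to the random sequences. The medians given above differed by -0.26 on the log2 scale in human and by -0.36 in mouse sequences, with no overlap of passages, and an exact permutation test of 3 against 3 passages gave p = 0.1, the smallest it allows. Their excess over the other upstream sequences was also lower in mESCs, with a log2 difference of -0.22 and -0.34 (exact permutation test, p = 0.1).

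Sequence by sequence, edgeR's quasi-likelihood test over all 11861 measured TSS sequences called 188 of the 727 human CpG-rich sequences at an adjusted p under 0.05 (Benjamini-Hochberg). 166 were higher in hESCs (22.8%, against 20.2% of all sequences) and 22 in mESCs (3.03%, against 5.2%). Of the 585 mouse sequences 146 were higher in hESCs (25.0%) and 25 in mESCs (4.27%). These shares lie near those of all sequences. The median log2 difference, mESC minus hESC, was -0.20 in human and -0.23 in mouse CpG-rich sequences, against -0.10 over all sequences. It was -0.05 and -0.04 in the other upstream sequences and -0.23 and -0.18 in the CpG-rich TSS sequences.

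The split of calls depended on the scaling. TMM scaling moved the median of all sequences by 0.12 on the log2 scale, and the human calls became 123 higher in hESCs and 46 in mESCs, the mouse calls 108 and 54. Relative to the median of all sequences, the median of the CpG-rich ones was lower by 0.10 in human and 0.13 in mouse under both scalings and under the size factors of DESeq2. Without the second hESC passage the mouse calls fell from 171 to 107.

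**Figure D4:**
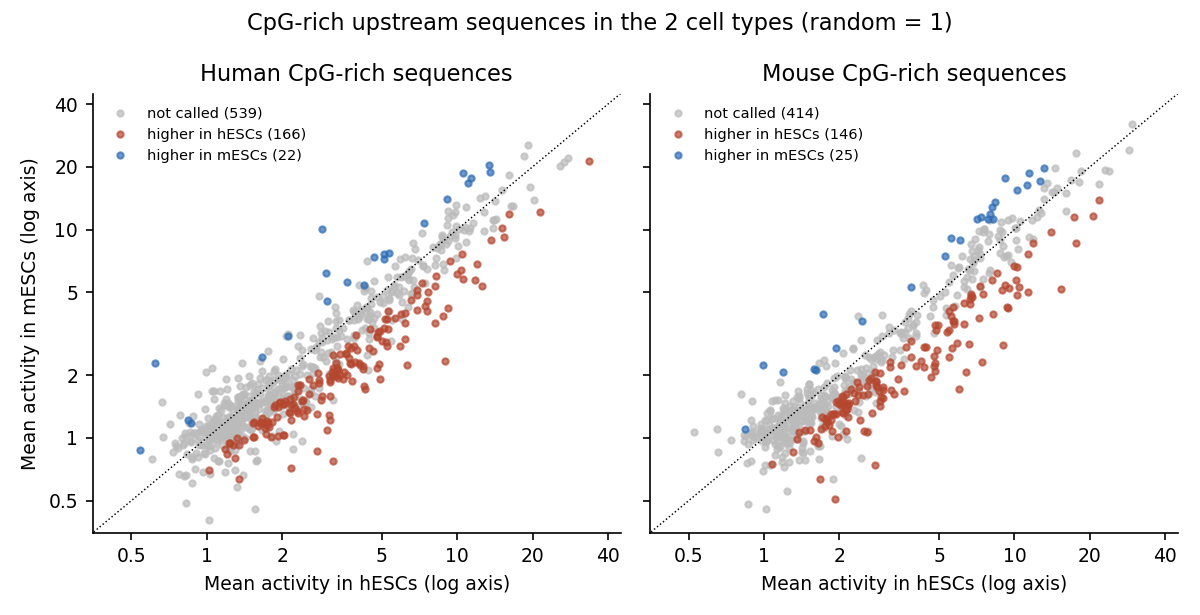
Each point is 1 measured CpG-rich upstream sequence, human (left) or mouse (right), with its mean activity over 3 hESC passages on the horizontal and over 3 mESC passages on the vertical log axis (random sequences at 1), and the dotted line marks equal activity. Of the coloured sequences, called by edgeR, 166 human and 146 mouse ones are higher in hESCs and 22 and 25 in mESCs, and most points follow the diagonal.

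The largest called differences toward hESCs were at ADAMTS16 and PIK3R2, whose sequences are printed above. ADAMTS16 gave 3.42, 3.23 and 2.94 in hESCs and 0.740, 0.863 and 0.728 in mESCs, a log2 difference of -2.04 ± 0.15 (SE, edgeR adjusted p = 1.194e-11). PIK3R2 gave 7.35, 9.42 and 9.98 against 2.59, 2.08 and 2.33, a difference of -1.93 ± 0.15 (edgeR adjusted p = 9.218e-11). PIK3R2 held an ETS site and ADAMTS16 none of the listed sites, so the ADAMTS16 sequence was active in hESCs and below the random median in mESCs without any of them.

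In mouse, Tsc22d1 gave 5.82, 6.37 and 5.85 in hESCs and 1.60, 1.92 and 1.63 in mESCs (-1.81 ± 0.17, edgeR adjusted p = 1.936e-09) on 25376 DNA counts, with a GC box as its only listed site. The other mouse sequences ranked highest in this direction, at 2 positions with no named gene start (chr12:81535975-81536118, plus, intron of Dcaf5, and chr1:88400758-88400901, minus, between genes), rested on 536 and 378 DNA counts. Both had a log2 difference of -1.91 and lost their call in the odd-numbered barcodes (-1.27 for the first and -1.79 for the second) and without the second hESC passage (-1.75 and -1.899). The second also lost it in the even-numbered barcodes, at -4.72, and in the first transfections alone, at -0.99.

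Toward mESCs, DDX39A gave 5.80, 5.71 and 7.08 in mESCs and 2.87, 2.93 and 3.15 in hESCs (1.06 ± 0.15, edgeR adjusted p = 4.02e-06). GMCL1, a BTB-domain protein (chr2:70056693-70056836, hg19, plus, UTR), gave 10.9, 7.45 and 11.8 against 2.24, 3.35 and 3.06 (1.80 ± 0.22, adjusted p = 1.973e-07), on 862 DNA counts. In mouse, Orc6, a subunit of the origin recognition complex (chr8:87823373-87823516, plus, UTR of Vps35), gave 16.5, 15.1 and 21.4 against 8.57, 9.16 and 9.71 (0.95 ± 0.16, adjusted p = 3.383e-05). In all 3 the passages of the cell types did not overlap.

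The other named sequences higher in mESCs were at non-coding RNAs or in no gene. The largest human difference, 1.88 ± 0.57, was at an RNA with the identifier ENSG00000231563 opposite TRIM11, an E3 ubiquitin ligase (448 DNA counts, edgeR adjusted p = 0.01348), and its call was lost in the odd-numbered barcodes (1.64), in the even-numbered barcodes (2.198), in the first transfections alone (1.14) and without the second mESC passage (1.69). It gave 2.69, 2.86 and 1.30 in mESCs against 0.569, 0.662 and 0.630 in hESCs. The largest mouse difference, at chr5:25035572-25035715 (plus, between genes, GC box and ETS site), was 3.63, 3.84 and 4.32 in mESCs against 1.41, 1.86 and 1.88 in hESCs (1.19 ± 0.15, adjusted p = 2.799e-07). Gm6288, a non-coding RNA in Ccdc91, had 0.81 ± 0.16 (adjusted p = 0.0002563), a call lost in the odd-numbered barcodes.

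Each CpG-rich upstream sequence was next compared with the TSS sequence of the same start, with which it shares 30 bp, and both directions of difference were found. 504 human starts had both tiles measured and a CpG-rich upstream tile. At an edgeR adjusted p under 0.05 and a change of at least 2-fold, the upstream sequence was higher in 82 (16.3%, against 8.59% of all human starts) and the TSS sequence in 166 (32.9%, against 27.1%), with a median log2 difference of -0.40 against -0.32 over all. In mouse the counts were 74 (17.7%, against 7.73%) and 150 (35.9%, against 24.9%) of 418, with a median of -0.35 against -0.26. The share of CpG-rich sequences called was above that of all starts in both directions.

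The balance went with the CpG number of the TSS sequence. Where that was CpG-rich too, 46 of 338 human upstream sequences were higher and 134 lower, with a median log2 difference of -0.67. Where it was not, 36 of 166 were higher and 32 lower, with a median of 0.01. In mouse the corresponding counts were 45 and 118 of 292 (median -0.62) and 29 and 32 of 126 (median 0.00). The difference between the 2 kinds of start was not tested.

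At MIR3677HG the upstream sequence gave the values above and the TSS sequence 1.07, 1.03 and 1.20, a log2 difference of 4.61 ± 0.13 (SE, edgeR adjusted p = 1.148e-10). At YIPF3 (chr6:43484629-43484772, hg19, minus, UTR) the upstream sequence gave 16.4, 18.5 and 20.4 and the TSS sequence, with 19 CpG, 1.68, 1.59 and 1.40 (3.57 ± 0.14, adjusted p = 3.703e-10). At MRPL3 the TSS sequence gave 2.30, 2.44 and 2.52 (3.51 ± 0.13, adjusted p = 2.16e-10). All 3 upstream sequences held an annotated start of the named transcript on the same strand, so the tile called upstream contained a start of the gene.

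The mouse set held Yipf3 too, with 1.23, 1.33 and 1.57 for the TSS sequence in mESCs (4.08 ± 0.27, edgeR adjusted p = 1.27e-08), and Sec22b, with 0.785, 1.20 and 1.15 (4.94 ± 0.29, adjusted p = 6.692e-09). At Gps1 the TSS sequence gave 0.0596, 0.103 and 0.125, far below the random median but on only 196 DNA counts from 7 barcodes, and the difference was 7.94 ± 0.35 (adjusted p = 5.73e-09). These 3 upstream sequences also held an annotated start of their own gene.

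In the opposite direction, an inactive CpG-rich upstream sequence lay beside a strong TSS sequence. At DPH5, an enzyme of diphthamide synthesis (chr1:101491424-101491567, hg19, minus, exon), the upstream sequence gave 1.00, 1.04 and 1.11 and the TSS sequence 37.1, 40.8 and 47.4 (-5.31 ± 0.16, edgeR adjusted p = 1.208e-10). At RPL22L1, printed above, it gave 0.975, 1.32 and 1.22 against 38.0, 39.2 and 41.5 (-5.08 ± 0.15, adjusted p = 1.241e-10). At a start in NIPA2, a magnesium transporter gene (chr15:23034263-23034406, plus, UTR), it gave 0.572, 1.37 and 1.24 against 28.2, 30.9 and 34.1 (-4.87 ± 0.29, adjusted p = 1.037e-08). In mouse, a sequence in Ankrd42 (-4.57 ± 0.29), Tmem161b (-4.50 ± 0.28) and Gm17408 (-4.46 ± 0.37) were the largest of this kind, with mean upstream activities of 1.23, 0.783 and 1.52. Of these 6, the RPL22L1, NIPA2 and Gm17408 sequences held none of the listed sites. Those of DPH5 and Tmem161b held a GC box and that in Ankrd42 an E2F site. Among all measured CpG-rich sequences, 222 of 727 human and 184 of 585 mouse ones held none. In these 6 a CpG number between 12 and 20 thus came with activity near that of the random sequences.

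**Figure D5:**
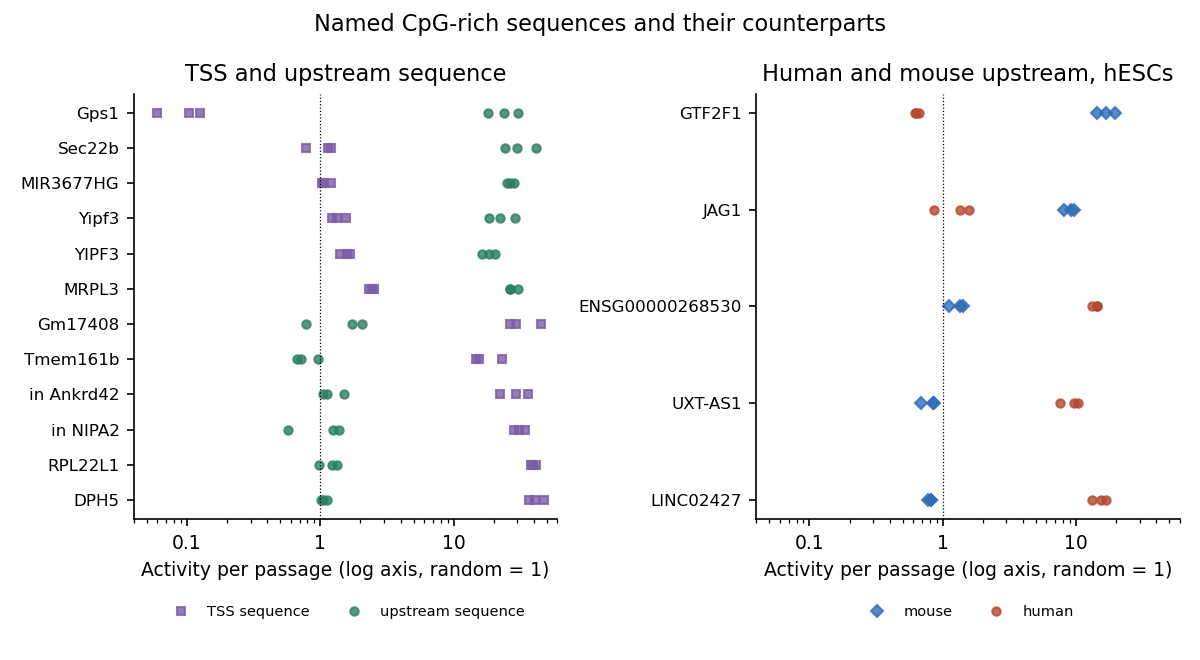
Points give the activity in each of 3 passages (horizontal log axis, random sequences at 1) of named CpG-rich upstream sequences and their counterparts: on the left the upstream and TSS sequences of the same start, human genes in hESCs and mouse genes in mESCs, and on the right human and mouse upstream orthologs in hESCs. In each row the 2 sets of points are apart, from 18.1 to 30.3 against 0.0596 to 0.125 at Gps1 to about 1.05 against 41.8 on average at DPH5.

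Orthologs allow the same upstream position to be compared with and without a high CpG number, though GC content and sites can also differ within a pair. The part of these was not tested. The part of the study's element list used here gave 2064 human and mouse pairs of upstream sequences, of which 308 were CpG-rich in human alone, 120 in mouse alone and 442 in both, and 222, 97 and 191 of these had both sequences measured. Pairs were tested in 1 cell type at a time, with an edgeR adjusted p under 0.05 and a change of at least 2-fold. Where only the human sequence was CpG-rich, the human one was higher in hESCs in 51 of 222 pairs (23.0%, against 13.6% of all pairs) and the mouse one in 13 (5.86%, against 8.51%), with a median log2 difference, mouse minus human, of -0.34 against -0.08 over all pairs. The medians of the human sequences were 2.09, 2.34 and 2.21 and those of their mouse orthologs 1.42, 1.40 and 1.43.

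Where only the mouse sequence was CpG-rich, it was higher in mESCs in 17 of 97 pairs (17.5%, against 7.2% of all pairs) and the human one in 8 (8.25%, against 10.2%), with a median of 0.25 against -0.05. In hESCs the same pairs gave 21 and 8. Where both were CpG-rich the calls were balanced, with 28 mouse and 23 human sequences higher in hESCs and 30 and 25 in mESCs of 191 pairs, and medians of 0.06 and -0.03. Where 1 ortholog alone was CpG-rich, most calls thus had that ortholog higher, and some had it lower.

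GTF2F1 had the largest difference toward mouse. The mouse sequence, with 15 CpG, gave 14.3, 16.7 and 19.5 in hESCs and 17.3, 14.7 and 20.01 in mESCs, and the human one, with 9 CpG, 0.661, 0.614 and 0.634 and 0.981, 0.702 and 0.497. The log2 difference was 4.73 ± 0.15 in hESCs (SE, edgeR adjusted p = 3.888e-10) and 4.58 ± 0.30 in mESCs (adjusted p = 4.158e-08). The CRE, E-box and TATA box printed in capitals were in the mouse sequence only.

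At JAG1 the mouse sequence gave 8.11, 9.64 and 9.24 in hESCs and the human one, with 18 CpG against 13, gave 0.861, 1.34 and 1.57 on 266 DNA counts (2.85 ± 0.19, adjusted p = 5.167e-08). The NRF1 site was in both JAG1 sequences, with a CCAAT box in the mouse one and a GC box in the human one. ASAH1, encoding acid ceramidase, had log2 differences of 3.32 ± 0.14 in hESCs and 3.30 ± 0.26 in mESCs, 16 CpG in mouse and 12 in human.

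Toward human, LINC02427 gave 13.1, 15.5 and 16.7 in hESCs and its mouse ortholog, with 5 CpG, 0.814, 0.771 and 0.819 (-4.24 ± 0.13, edgeR adjusted p = 3.888e-10). UXT-AS1, with the NRF1 site, gave 7.64, 9.63 and 10.4 and the mouse sequence, with 1 CpG and a CCAAT box, 0.856, 0.843 and 0.685 (-3.54 ± 0.15, adjusted p = 1.861e-09). GC content, with the CpG-rich ortholog first, was 71.5% against 43.1% at LINC02427 and 63.2% against 42.4% at UXT-AS1. At GTF2F1 it was 57.6% against 55.6%. An RNA with the identifier ENSG00000268530 in CYTH2 gave 13.2, 14.3 and 14.3 and its mouse counterpart, with 12 CpG against 16, gave 1.11, 1.35 and 1.43 (-3.42 ± 0.13, adjusted p = 8.436e-10). At NOL6, a nucleolar protein, the human sequence, with 11 CpG, gave 27.3, 23.7 and 40.7 in mESCs and the CpG-rich mouse one, with 13, only 3.65, 3.31 and 3.84 (-3.08 ± 0.24, adjusted p = 1.561e-07). In the NOL6 pair the sequence under the CpG limit was the stronger one.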

How the data were processed

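The deposited files held raw counts of reads per barcode for 1 plasmid DNA library, 9 hESC and 3 mESC RNA libraries. Per the study's methods, the authors trimmed reads with cutadapt (version not given in the sources used here) and counted exact barcode matches, without molecular identifiers. RNA-seq counts of the same cells were not used. Sequences without annotation of their start within 1000 bp are named by position. Barcodes with fewer than 10 DNA counts were dropped, sequences with under 50% of barcodes left were not measured, transfections of a passage were summed, and values were scaled to the median of 1604 random sequences. Random sequences had 3 barcodes, the others 13. Active sequences had q under 0.05 by distance from the random median in median absolute deviations (factor 1.4826). Single sequences were tested with edgeR 4.0.16 (quasi-likelihood, Benjamini-Hochberg, DNA counts as offset between sequences), medians with exact permutation tests over passages. Differences between the upstream and TSS sequences and between orthologs also needed a log2 change of 1. DESeq2 1.42.0, limma 3.58.1 (log2 activity), other count minimums, barcode sets, CpG limits and passages left out were alternatives. The fits were tested on simulated data. Human and mouse GENCODE annotation, of different releases, on hg19 and mm9 gave positions and starts. The named sequences were, per species, the 5 highest and 2 lowest in the native cell type, and the 3 largest called differences in each direction of each comparison. Members and lists were chosen with earlier results of these data known. The study's tool, MPRAnalyze, was not run. Some results of the named sequences are not reported here.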

Additional observations from a re-analysis of the deposited data

Results flagged for a closer look

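In 2 of 10 results examined over the 9 single hESC transfections, 1 transfection stood apart from the other 8 by Dixon's 95% criterion, which chance meets in about 1 in 20 groups. The log2 difference between human CpG-rich upstream sequences with and without a CCAAT box was 0.831 in the first transfection of hESC passage 1, with a median of 0.970 and a highest value of 1.06. The difference for the GC box among mouse CpG-rich sequences was 0.654 in the third transfection of hESC passage 2, with a median of 0.440 and a lowest value of 0.326. Both differences were positive in all 9 transfections.

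Sequences with the E2F consensus were higher than those without in all 6 passages for human CpG-rich sequences (0.92, 28 sequences) and lower in all 6 for mouse ones (-0.28, 11 sequences). The difference between the species was not tested. The mouse value ran from -0.32 to 0.36 over the settings tried, and was no longer past its threshold under a minimum of 20 DNA counts (-0.07, exact sign-flip p = 0.5625).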

How the results depend on the processing

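The differences in median activity between CpG-rich and other upstream sequences kept their direction in every setting tried, and with each passage left out in turn ranged from 0.72 to 0.78 in human and from 0.69 to 0.77 in mouse (exact p = 0.0625, the smallest 5 passages allow). For the same reason, 0 of the 10 site tests passed with a passage left out, against 9 of 10 with 6. Active human sequences numbered 198 with 15 or more CpG and 167 by rank among random sequences (330 to 392 with a passage left out), and active mouse sequences 126 with 15 or more CpG (203 to 226). Cell type calls in human were 86 with even-numbered barcodes, 94 with 15 or more CpG and 26 with a log2 change of at least 1 (129 to 212 with a passage left out), and in mouse 88, 80 and 31 (107, without hESC passage 2, to 198). Calls between the upstream and TSS sequences were 431 without a minimum share of barcodes, 375 with 10 or more CpG and 120 with 15 or more in human (245 to 247), and 344 without the minimum share and 115 with 15 or more CpG in mouse (213 to 231). Ortholog calls without the minimum share rose to 97 where human alone was CpG-rich and to 118 where both were, and the latter were 33 with a minimum of 30 DNA counts, 87 with 10 or more CpG and 15 with 15 or more. Other CpG limits and the minimum share change how many sequences are tested; for the other settings the cause was not tested.

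Directions reversed for the human E-box (0.00625 without a minimum share, 0.0114 with 20 DNA counts), the human TATAAA site (-0.114 with 20 DNA counts, -0.0357 with even-numbered barcodes, -0.162 with 10 or more CpG) and the mouse E2F site (0.355 with 10 or more CpG). Passage numbers did not pair the cell types: deviations of same-numbered hESC and mESC passages correlated at 0.03, 0.01 and 0.04. With the passage number as a replicate block, cell type calls were 213 in human and 197 in mouse, tile calls 248 and 223, and ortholog calls 66, 25 and 53.

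Most sequences with 20 or more CpG did not reach the DNA count minimum and were not measured; the cause of their low DNA counts was not tested.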

Other observations

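CpG-rich upstream sequences of enhancer RNA starts were weaker than those of protein-coding starts, by the classes that the part of the study's element list used here gives. The 21 human ones had hESC medians of 1.33, 1.45 and 1.21, against 2.34, 2.62 and 2.37 for 221 at mRNA starts and 2.08, 2.14 and 2.23 for 182 at long non-coding RNA starts. In mESCs the 23 mouse ones had 1.40, 1.36 and 1.44, against 1.74, 1.69 and 1.86 for 170 at mRNA starts. The passages of enhancer RNA and mRNA starts did not overlap in either species. Among mouse CpG-rich sequences, 22 were classed in that list as having no CAGE activity. The study judged active starts by a minimum number of CAGE reads, which mark capped RNA starts. These 22 had hESC medians of 1.90, 1.82 and 1.91, against 1.06, 1.03 and 1.04 for 275 other upstream sequences of that class. The differences between these classes of start were not tested.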
